A study of Mus musculus with 12 samples.

Results

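The genes described here are 39 genes of the cell division cycle: 21 that act in S phase, when DNA is copied, and 18 that act in mitosis, when the copies are separated. They were chosen by name, as known parts of the replication and mitotic machinery, out of 48448 genes whose values could be summed from the deposited transcripts. The choice was made with earlier results of these data known, so counts over the 39 genes describe them and do not test them. All 39 were found, and all 39 were among the 16970 genes tested, those that reached an FPKM of 1 in 3 or more libraries (FPKM scales sequenced fragments to the length of the transcript and the size of the library). The 12 RNA-seq libraries came from C57BL/6 mice with colitis-associated colon cancer and form 4 groups of 3. FA libraries are adjacent colon epithelium and FT libraries colon tumours of Synbindinflox mice, whose gene for Synbindin carries target sites for Cre recombinase. DA libraries are adjacent colon epithelium and DT libraries colon tumours of SynbindinΔIEC mice, in which the gene was deleted in intestinal epithelial cells. All 4 groups share the strain and the cancer model, so the adjacent tissue is not healthy colon. The age of the mice, the agents that induced the tumours, the Cre driver and the number of animals behind a library are not stated in the labels. The labels do not say that the libraries of a group come from separate animals, so p-values measure only the spread between these libraries.

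Trappc4, the gene for Synbindin (ENSMUSG00000032112, GRCm38 chromosome 9, 44403698 to 44407600), checks the genotype labels. Its FPKM was 16.8, 17.0 and 17.3 in FA1 to FA3, and in DA1 to DA3 10.2, 12.6 and 10.4. In tumours it was 18.7, 17.5 and 20.9 in FT1 to FT3 and 12.7, 11.4 and 9.91 in DT1 to DT3. All 6 ΔIEC libraries lay below all 6 flox libraries, a difference averaged over tissues of -0.64 on the log2(FPKM + 1) scale (SE 0.08, limma unadjusted p = 1.1e-05, adjusted p = 0.18). General epithelial markers were detected in each library but not all were high throughout. Epcam lay between 290 and 637 FPKM, whereas Cdx1 ran from 23.2 to 144 and Cdx2 from 1.45 to 107. Collagen-rich, muscle and immune markers were also present, so the libraries hold more than epithelium. The depth of the libraries is unknown, because FPKM values do not carry it; summed FPKM ran from 534806 to 821487 per library.

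Replication begins when the origin recognition complex, Cdc6 and Cdt1 load the ring-shaped MCM helicase onto DNA in G1. Cdc45 and the GINS complex then turn the helicase on, and polymerases, the clamp Pcna and its loader copy the strands with nucleotides that ribonucleotide reductase and thymidylate synthase supply. E2F factors, held back by the Rb family, drive many of these genes at the start of S phase, whereas a later wave of mitotic genes is controlled by the DREAM and MuvB complexes with B-Myb and Foxm1, which bind an element called CHR. In the colon, cells divide in the lower crypt, and the differentiated cells of the surface have left the cycle.

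The 2 sets of genes carry different letters around their start sites. In the RefSeq promoter table (GRCm38.p6, from 250 bases before to 50 bases after each start), 31 of the 39 genes had an entry: 17 of the 21 S phase genes and 14 of the 18 mitosis genes. Mcm4, Gins1, Gins2, Ccne2, Ccna2, Aurkb, Tpx2 and Foxm1 did not. Searched on both strands, the E2F core (the word TTCCCGC, the word TTCGCGC, the word TTGCCGC or the word TTGGCGC) occurred in 11 of 17 S phase promoters (64.7%) and in 3 of 14 mitosis promoters (21.4%), against 9.69% of all 27025 promoters and 16.2% of those of the genes tested. The CHR words, TTTGAA or else TTCGAA, showed the opposite split, in 3 of 17 S phase promoters (17.6%) and 11 of 14 mitosis promoters (78.6%), against 19.4% of all promoters and 14.5% of those of the genes tested. The CCAAT word, the core of the box that NF-Y binds, occurred in 12 of 17 and 13 of 14, against 37.9% of all promoters. A match is a string of letters and not a measured binding site, and E2F and CCAAT words can overlap. The promoters of Mcm6, Cdc20 and Ccnb1 are printed because they show the E2F pattern, the CHR pattern and an exception. Each is given 5′ to 3′ in the direction of the gene, without the bases that lie in an exon of the gene, and capitals mark the matched words:
Mcm6: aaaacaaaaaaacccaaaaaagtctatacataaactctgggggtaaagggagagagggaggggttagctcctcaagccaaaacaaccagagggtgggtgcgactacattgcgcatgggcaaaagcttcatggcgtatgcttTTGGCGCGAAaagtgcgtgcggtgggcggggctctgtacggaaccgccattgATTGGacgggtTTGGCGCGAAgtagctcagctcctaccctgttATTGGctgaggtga
Cdc20: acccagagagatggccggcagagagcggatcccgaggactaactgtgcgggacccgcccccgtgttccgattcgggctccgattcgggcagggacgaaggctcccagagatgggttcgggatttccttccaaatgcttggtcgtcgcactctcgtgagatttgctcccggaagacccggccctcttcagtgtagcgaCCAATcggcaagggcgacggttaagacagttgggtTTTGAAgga
Ccnb1: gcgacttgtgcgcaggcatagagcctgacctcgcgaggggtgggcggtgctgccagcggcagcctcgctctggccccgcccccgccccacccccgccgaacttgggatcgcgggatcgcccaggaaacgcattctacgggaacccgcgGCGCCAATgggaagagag
The Mcm6 stretch (chr1:128359706-128359955, minus strand) holds 2 copies of a 10-base run in which an E2F word and the reverse of another overlap, starting 109 and 46 bases before the start site, beside CCAAT boxes on the reverse strand. The Cdc20 stretch (chr4:118437353-118437593, minus strand) holds a CCAAT box 53 bases and a CHR word 18 bases before the start, the order found in many mitotic promoters. The Ccnb1 stretch (chr13:100786571-100786736, minus strand) holds an E2F word on the reverse strand, joined to a CCAAT box, and no CHR word.

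The S phase level of a library, the mean log2(FPKM + 1) of the 21 genes, was 3.69, 3.21 and 3.49 in FA1 to FA3, and in DA1 to DA3 3.20, 3.99 and 3.58. It was 3.98, 4.08 and 4.27 in FT1 to FT3 and 4.12, 4.19 and 4.19 in DT1 to DT3. Of the 6 adjacent libraries only DA2 reached the tumour range, just above FT1. The mitosis level over the 18 genes was 3.98, 3.66 and 4.10 in FA1 to FA3, and in DA1 to DA3 3.70, 4.44 and 3.87. In tumours it was 4.09, 4.48 and 4.79 in FT1 to FT3 and 4.51, 4.39 and 4.60 in DT1 to DT3. The mitosis levels overlapped more than the S phase levels: DA2 lay above FT1 and DT2, and FA3 above FT1.

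**Figure D1:**
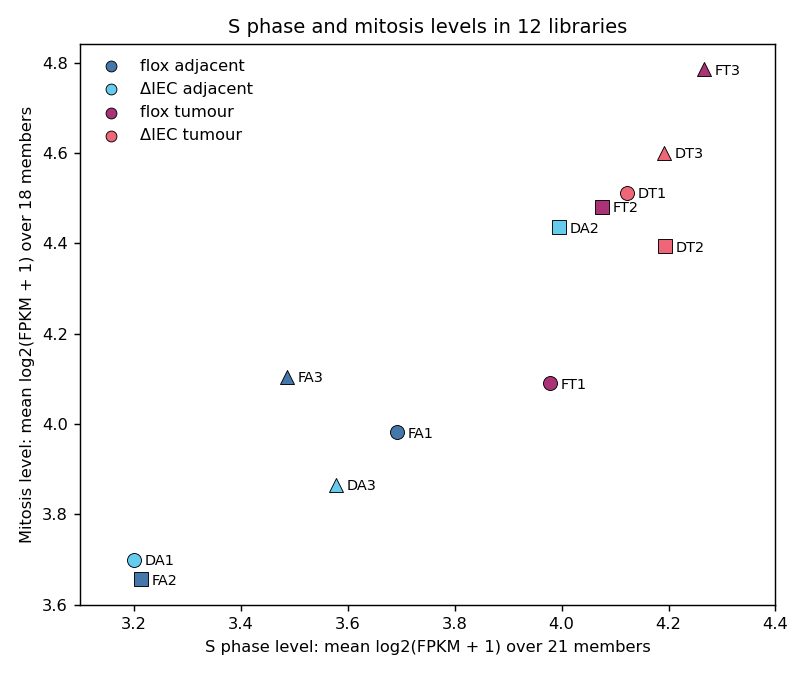
Each point is a library; the x axis is the mean log2(FPKM + 1) of the 21 S phase genes, the y axis that of the 18 mitosis genes, colour gives the group and the marker shape the replicate number. The 6 tumour libraries lie at an S phase level of 3.98 or more, and of the adjacent libraries only DA2, at 3.99, lies among them.

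DA2 stood apart gene by gene as well: it was the highest of the 6 adjacent libraries for 37 of the 39 genes. FA2 and DA1 were the lowest adjacent libraries for 17 and 16 genes, and among tumours FT1 was the lowest for 26 and FT3 the highest for 21. DA2 reached or passed the lowest tumour library in 14 of 21 S phase genes and in 18 of 18 mitosis genes. The same library had the lowest summed FPKM of the 8 differentiated colonocyte markers among adjacent libraries, 1585 against 2224 to 3763, and the highest fibroblast sum, 247 against 44.6 to 205. Its B and germinal centre cell markers summed to 74.3, against 3.84 to 10.8 in flox adjacent libraries, 4.18 in DA1 and 192 in DA3. Its plasma cell markers summed to 1195, against 360 to 886 in the other adjacent libraries. Immunoglobulin genes held 12.7% of its FPKM, against 2.19% to 6.16% in the other adjacent libraries and 20.5% in the tumour library DT3. The part of these cells in its cell cycle levels was not tested. In bulk tissue, fewer cells of a type and less RNA per cell cannot be told apart.

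**Figure D2:**
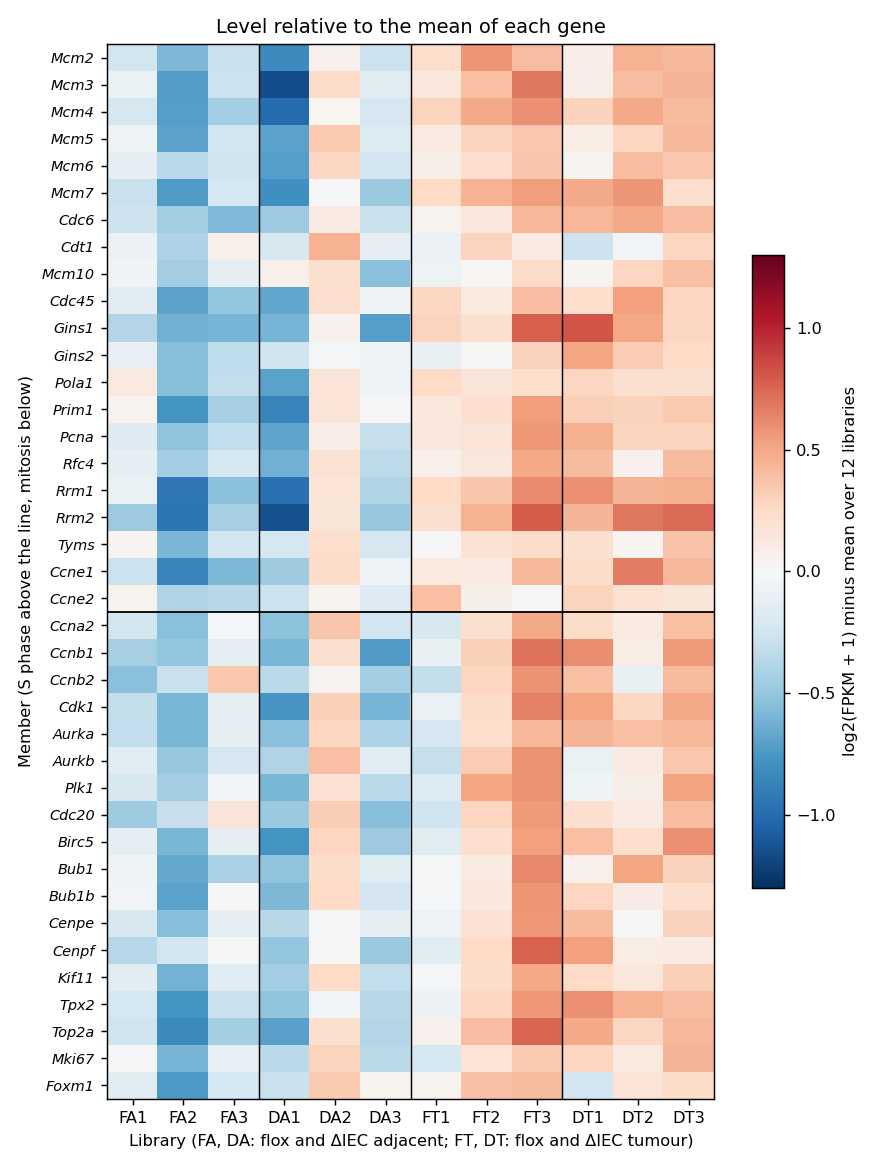
Each row is a gene, each column a library, and colour is log2(FPKM + 1) minus the mean of that gene over the 12 libraries. DA2 is the highest adjacent library in 37 of the 39 rows, FA2 and DA1 are the lowest in 17 and 16, and FT1 is the lowest tumour library in 26.

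Tumours were compared with adjacent tissue in each genotype and averaged over both, with limma on log2(FPKM + 1). All differences are on this scale, on which changes of weakly expressed genes look too small, and a gene was called at a Benjamini-Hochberg adjusted p below 0.05. With both genotypes averaged, 19 of the 21 S phase genes rose in tumours and 0 fell, where 24.2% of all genes tested rose and 26.4% fell. In flox mice alone 10 of 21 rose, against 16.6% of all genes (19.7% fell), and in ΔIEC mice 9 of 21, against 13.9% (15.5% fell). The median S phase difference was 0.64 in flox and 0.55 in ΔIEC mice, against -0.01 and -0.03 over all genes tested. The median ratio of group means, tumour over adjacent, was 1.66 in flox and 1.49 in ΔIEC mice. The single-genotype counts rest on 3 libraries a group and moved with them. In flox mice 3 S phase genes were called without FA2, 4 without FT3, 6 without FA3, 14 without DA2 and 15 without FA1 or DA1. In ΔIEC mice 3 were called without DA1, 4 without DT1 or DT2, 5 without DA3 and 15 without DA2, and 0 were called when only the 6 ΔIEC libraries were fitted. The averaged count stayed between 14 and 20 whichever library was left out. Scaling mattered to the counts: of all genes called, 45.7% were higher in tumours in flox mice, 47.3% in ΔIEC mice and 47.7% averaged, and these shares became 78.4%, 74.7% and 76.2% when libraries were rescaled to a common total of protein-coding FPKM. That rescaling moved the median of all genes to 0.34, 0.21 and 0.27. Measured from the median of all genes, the S phase median was 0.64, 0.58 and 0.64 as deposited and 0.71, 0.59 and 0.66 after rescaling.

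**Figure D3:**
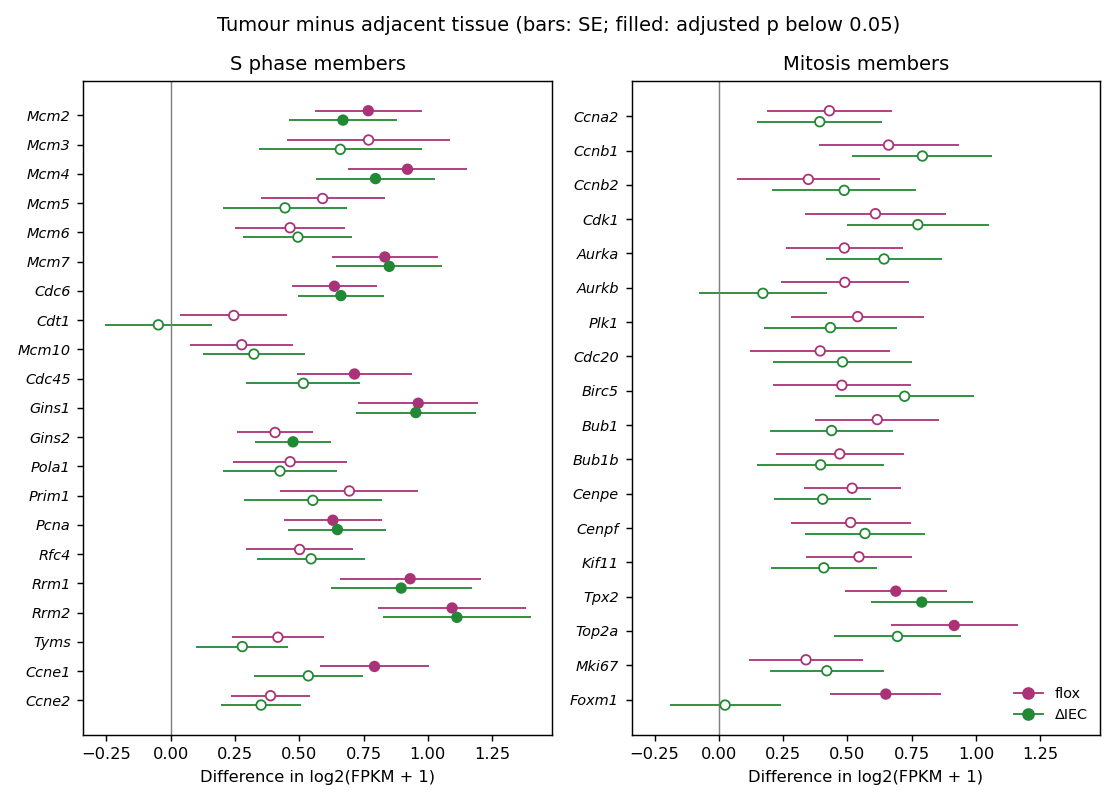
Points are the tumour minus adjacent difference in log2(FPKM + 1) for each gene in flox and ΔIEC mice, bars are the standard error from limma, and filled points have an adjusted p below 0.05. All 39 flox differences lie above 0, as do 38 of 39 ΔIEC differences, Cdt1 being the exception at -0.05 (above 0 after rescaling to protein-coding genes).

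The 6 subunits of the MCM2-7 helicase, which unwinds DNA at the fork, all rose in the averaged contrast, with differences from 0.48 for Mcm6 to 0.86 for Mcm4. Mcm7 (chromosome 5, 138164583 to 138172422) was at 31.7, 23.0 and 33.2 FPKM in FA1 to FA3 and at 22.1, 39.1 and 27.5 in DA1 to DA3. It reached 46.7, 53.7 and 57.1 in FT1 to FT3 and 55.1, 58.3 and 45.4 in DT1 to DT3. Each of the 6 tumour libraries lay above each adjacent one, and the averaged difference was 0.84 (SE 0.15, limma adjusted p = 0.00096). Mcm2 was at 15.2, 11.8 and 14.7 FPKM in FA1 to FA3, 9.80, 18.9 and 14.8 in DA1 to DA3, 21.4, 27.4 and 24.3 in FT1 to FT3 and 19.3, 25.1 and 24.7 in DT1 to DT3. Its tissues did not overlap either, though DA2 came within 1 FPKM of DT1, and it differed by 0.72 (SE 0.15, limma adjusted p = 0.0026). Mcm4 was the only other subunit called in each genotype alone, at 0.92 in flox and 0.80 in ΔIEC mice. Mcm3, Mcm5 and Mcm6 differed by 0.46 to 0.77 in flox and 0.44 to 0.66 in ΔIEC mice and were called only with both genotypes averaged. Mcm3 had the largest limma standard error of the 39 genes on the log2(FPKM + 1) scale, 0.22 in the averaged contrast. Within ΔIEC adjacent tissue it ran from 8.21 FPKM in DA1 to 23.3 in DA2.

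The genes that license and fire origins did not move as a block. Gins1, a subunit of the GINS complex that activates the helicase, was at 3.84, 3.07 and 3.15 FPKM in FA1 to FA3, 3.15, 5.52 and 2.83 in DA1 to DA3, 6.70, 6.27 and 9.82 in FT1 to FT3 and 10.1, 7.94 and 6.56 in DT1 to DT3. Its tumour libraries were all above its adjacent libraries, and its averaged difference of 0.96 (SE 0.17) had the smallest limma adjusted p of the 39 genes, 0.00093. Gins2, of the same complex, rose less: 8.59, 6.03 and 7.20 FPKM in FA1 to FA3, 7.61, 9.21 and 8.99 in DA1 to DA3, 8.68, 9.42 and 11.8 in FT1 to FT3 and 13.8, 11.97 and 11.3 in DT1 to DT3, a difference of 0.44 (SE 0.11, limma adjusted p = 0.0058). FT1 lay below DA2 and DA3 for this gene, and with its most abundant transcript in place of the sum the adjusted p was 0.34. Cdc6, the loader of the helicase, went from 3.41, 2.91 and 2.60 FPKM in FA1 to FA3, and in DA1 to DA3 2.85, 4.74 and 3.35 to 4.49, 4.91 and 6.17 in FT1 to FT3 and 6.18, 6.52 and 6.06 in DT1 to DT3. Only FT1 fell within the adjacent range, below DA2, and the averaged difference was 0.65 (SE 0.12, limma adjusted p = 0.0013). Cdc45, the partner of GINS, differed by 0.62.

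Cdt1, which loads the helicase with Cdc6 and is destroyed once S phase begins, was one of 2 S phase genes not called. It was at 8.93, 6.92 and 9.99 FPKM in FA1 to FA3, 8.08, 13.3 and 8.65 in DA1 to DA3, 8.96, 11.8 and 10.3 in FT1 to FT3 and 7.68, 9.25 and 11.7 in DT1 to DT3. Its highest library was the adjacent DA2 and the groups overlapped throughout, with an averaged difference of 0.10 (SE 0.15, limma adjusted p = 0.61). The other was Mcm10, which helps the helicase start, at 0.30 (SE 0.14, limma adjusted p = 0.10).

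At the fork, Pcna, the sliding clamp, was the most abundant S phase gene. Its FPKM was 63.7, 49.6 and 57.2 in FA1 to FA3, and in DA1 to DA3 44.2, 75.9 and 57.9. It was 79.6, 80.7 and 106 in FT1 to FT3 and 99.0, 87.7 and 87.9 in DT1 to DT3. The tissues did not overlap, and the averaged difference was 0.64 (SE 0.13, limma adjusted p = 0.0030). Pola1 and Prim1, the polymerase and primase subunits that start each strand, and Rfc4 of the clamp loader rose by 0.44 to 0.62 in the averaged contrast and were called in neither genotype alone. The 2 subunits of ribonucleotide reductase, which makes deoxyribonucleotides, had larger differences. Rrm2, the subunit that limits the enzyme in S phase, had the largest difference of the 39 genes, 1.10 (SE 0.20, limma adjusted p = 0.0014), with 7.94 to 20.9 FPKM in adjacent and 21.7 to 32.8 in tumour libraries. Rrm1 rose by 0.91, from 14.5 to 33.1 FPKM in adjacent libraries to 35.4 to 45.6 in tumours, again without overlap. Tyms, thymidylate synthase, rose by 0.35 as a sum over transcripts. Its main protein-coding transcript, with 20.5% of the gene's FPKM, overlapped between tissues. That transcript ran from 3.04 to 6.57 FPKM in adjacent and from 4.15 to 5.38 in tumour libraries. Of the E cyclins, which start S phase with Cdk2, Ccne1 rose by 0.66 and Ccne2 by 0.37.

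Of the 18 mitosis genes, 11 rose in the averaged contrast and 0 fell, where 24.2% of all genes tested rose and 26.4% fell. In flox mice alone 3 of 18 rose (Top2a, Tpx2 and Foxm1), a share near the 16.6% of all genes, and in ΔIEC mice 1 of 18 (Tpx2), below the 13.9% of all genes. The median difference was 0.52 in flox and 0.46 in ΔIEC mice, and the median ratio of group means 1.51 and 1.37. Measured from the median of all genes, the difference was 0.52, 0.49 and 0.50 in flox mice, ΔIEC mice and averaged, and 0.55, 0.52 and 0.54 after rescaling to protein-coding genes. On that scale 18, 11 and 18 were called, where 6350, 4366 and 7524 of all 17116 genes tested rose. Leaving out DA2 raised the counts to 7 in flox, 10 in ΔIEC mice and 17 averaged. Across all single removals the averaged mitosis count ran from 8 to 17. Over all genes, with 1 library left out at a time, 1669 to 3194 rose in flox mice, 1365 to 2365 in ΔIEC mice and 3510 to 4083 averaged. In flox mice 0 were called without FA2 or FT3, 1 without FT2, 5 without DA1 and 7 without FT1. In ΔIEC mice 0 were called without DA1 or DT1, 2 without DT2 or FT3 and 3 without FT1. FT1, the lowest tumour library for most of these genes, lay at or below the highest adjacent library in 18 of 18.

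Cyclin B1 and its kinase Cdk1 drive entry into mitosis. Ccnb1 was at 13.8, 13.1 and 17.3 FPKM in FA1 to FA3, 12.2, 22.2 and 11.0 in DA1 to DA3, 17.7, 23.8 and 31.6 in FT1 to FT3 and 29.5, 20.4 and 28.3 in DT1 to DT3. DA2 lay above FT1 and DT2, and the averaged difference was 0.73 (SE 0.19, limma adjusted p = 0.0100). Cdk1 was at 30.5, 24.8 and 35.1 FPKM in FA1 to FA3, 22.0, 47.6 and 24.8 in DA1 to DA3, 35.9, 45.0 and 60.5 in FT1 to FT3 and 54.8, 46.0 and 53.8 in DT1 to DT3. DA2 again lay among the tumours, above FT1, FT2 and DT2, and Cdk1 differed by 0.69 (SE 0.19, limma adjusted p = 0.013). Ccna2 and Ccnb2, the cyclins that act before and beside cyclin B1, differed by 0.41 and 0.42 and were not called.

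Among mitotic kinases and their partners, Aurka, the centrosome kinase, rose by 0.57, Plk1 by 0.49 and Birc5, the survivin subunit of the chromosomal passenger complex, by 0.60. The main protein-coding transcript of Plk1 overlapped, at 11.3 to 20.2 FPKM in adjacent and 12.1 to 21.6 in tumour libraries. Another Plk1 transcript, not annotated as protein-coding, was at no more than 1.1e-04 FPKM in adjacent libraries and at 2.19 to 6.30 in tumours. Aurkb, the kinase of that complex, differed by 0.33 and Cdc20, which switches on the anaphase-promoting complex, by 0.44; neither was called. Of the checkpoint and kinetochore genes, Bub1 (0.53), Cenpe (0.46) and Cenpf (0.54) rose, and Bub1b, at 0.43, was not called (limma adjusted p = 0.062).

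Tpx2, which activates Aurora A on the spindle, was the mitosis gene with the smallest p. It was at 10.8, 7.07 and 10.3 FPKM in FA1 to FA3, 8.62, 12.6 and 9.83 in DA1 to DA3, 12.2, 15.8 and 19.5 in FT1 to FT3 and 20.0, 17.96 and 17.3 in DT1 to DT3. Only FT1 lay below DA2, and the averaged difference was 0.74 (SE 0.14, limma adjusted p = 0.0016). Top2a, the topoisomerase that untangles chromosomes, was at 49.4, 33.1 and 43.4 FPKM in FA1 to FA3, and in DA1 to DA3 35.9, 68.8 and 45.2. It was at 62.0, 78.7 and 101 in FT1 to FT3 and 83.9, 71.9 and 80.7 in DT1 to DT3. FT1 lay below DA2 here too, and Top2a differed by 0.80 (SE 0.17, limma adjusted p = 0.0034). Kif11, the motor that separates spindle poles, rose by 0.48.

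Mki67, which encodes the proliferation antigen Ki-67, was not called. It was at 48.5, 32.0 and 45.7 FPKM in FA1 to FA3, 38.4, 60.3 and 38.4 in DA1 to DA3, 41.8, 55.6 and 62.6 in FT1 to FT3 and 59.9, 53.8 and 67.4 in DT1 to DT3. FT1 lay below 3 adjacent libraries and DA2 above 4 tumour libraries, and the averaged difference was 0.38 (SE 0.16, limma adjusted p = 0.067). Without DA2 it passed the threshold (limma adjusted p = 0.017), as it did without FT1 (0.038). Other single removals moved it the other way, up to a limma adjusted p of 0.15. Over all alternatives the limma adjusted p ran from 0.0047 to 0.26. Foxm1, the transcription factor of the late cell cycle, had the smallest p for a tumour difference that depends on genotype. It was at 9.12, 5.64 and 8.49 FPKM in FA1 to FA3, 8.13, 13.1 and 10.5 in DA1 to DA3, 10.5, 13.5 and 13.8 in FT1 to FT3 and 8.34, 11.6 and 12.2 in DT1 to DT3. It rose in flox tumours by 0.65 (SE 0.22, limma adjusted p = 0.039), and in ΔIEC mice the groups overlapped with a difference of 0.02 (SE 0.22). The difference between these differences was -0.63 (SE 0.31). Its unadjusted limma p was 0.067 and its adjusted p 1.0, so it did not pass a test. The main protein-coding transcript of Foxm1 held 50.4% of the gene's FPKM. That transcript was at 2.82 to 4.55 FPKM in FA, 4.86 to 6.74 in FT, 3.66 to 6.40 in DA and 5.30 to 7.21 in DT libraries.

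**Figure D4:**
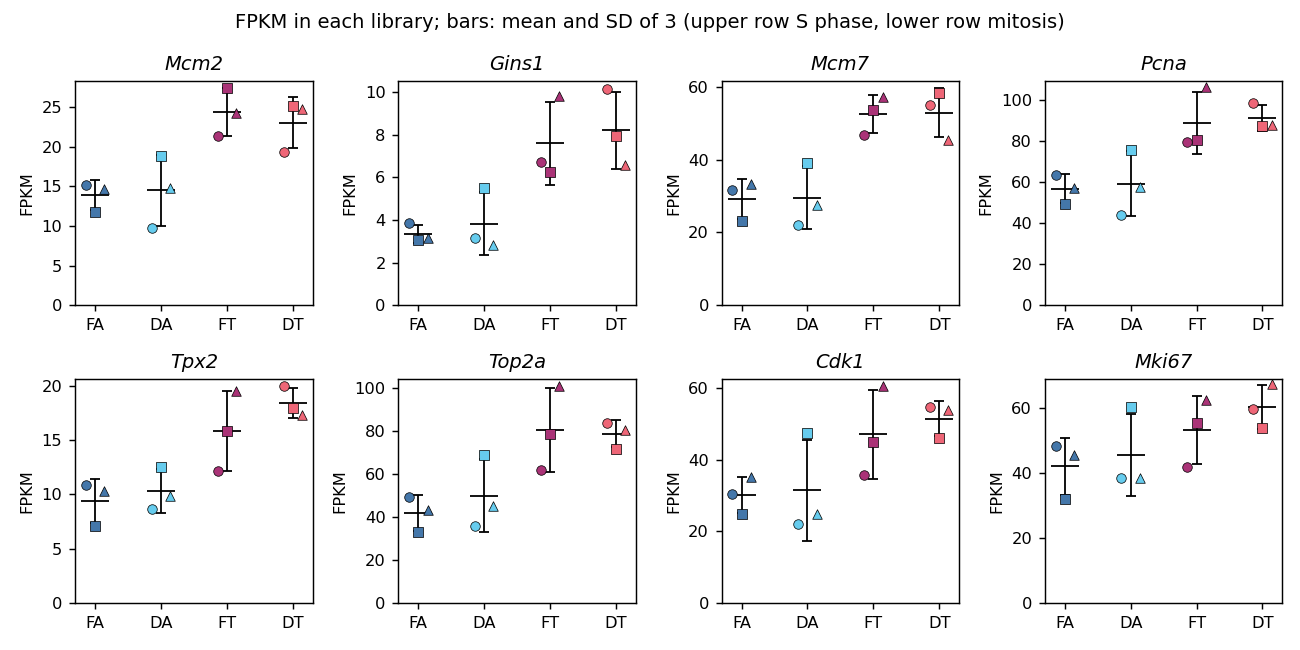
Each panel plots the FPKM of 1 gene in the 12 libraries by group, with marker shape for the replicate number and bars for the mean and SD of 3; the upper row is S phase and the lower row mitosis. Mcm2, Gins1, Mcm7 and Pcna do not overlap between adjacent and tumour libraries, whereas for Tpx2, Top2a, Cdk1 and Mki67 the square of DA2 lies above at least 1 tumour library.

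Overlap between tissues counts the same contrast in another way. All 6 tumour libraries lay above all 6 adjacent libraries for 7 of 21 S phase genes and 0 of 18 mitosis genes, against 13.5% of all genes tested. Without DA2, a comparison chosen after that library was seen, the counts were 16 of 21 and 7 of 18, against 15.8% of all genes. Within flox mice the 3 tumours lay above the 3 adjacent libraries for 17 S phase and 8 mitosis genes, against 26.4% of all genes, and within ΔIEC mice for 13 and 5, against 20.8%. The 2 sets were also set against each other within each library, which leaves out what a library does to both. S phase minus mitosis level was -0.29, -0.44 and -0.62 in FA1 to FA3, -0.50, -0.44 and -0.29 in DA1 to DA3, -0.11, -0.41 and -0.52 in FT1 to FT3 and -0.39, -0.20 and -0.41 in DT1 to DT3. The groups overlapped, and the group means of -0.45, -0.41, -0.35 and -0.33 differed by less than the pooled SD of 0.16 within groups. The standard error of a single contrast was larger for mitosis genes, with a median of 0.24, than for S phase genes (0.21) or all genes tested (0.19).

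Deletion of Synbindin was compared with its control within adjacent tissue and within tumours. No gene of the 39 was called, and 0% of all genes tested were called in either tissue. At an unadjusted limma p below 0.05, 4.14% of all genes passed in adjacent tissue, 1.87% in tumours and 2.64% in the interaction, and of the 39 genes 1, 0 and 0. In adjacent tissue 31 of 39 genes had a difference above 0. The medians were 0.12 for S phase and 0.11 for mitosis genes, against -0.03 over all genes tested. Without DA2 the medians were -0.12 and -0.13, and without FA2 they were -0.04 and -0.06, so their sign rested on single libraries. In tumours 29 of 39 lay above 0, with medians of 0.05 and 0.05, against -0.01 over all genes tested. Without FT1 the tumour medians were -0.01 and -0.14, with 10 S phase and 4 mitosis genes above 0. After rescaling to protein-coding genes 12 and 10 lay above 0 in tumours, where the median of all genes was -0.05. In adjacent tissue the same rescaling moved the counts above 0 from 20 and 11 to 21 and 16. The median of all genes there was 0.03. The groups overlapped for each of the 39 genes in both tissues, where 2.56% of all genes tested lay wholly higher and 5.14% wholly lower in ΔIEC adjacent tissue, and 3.03% and 3.74% in ΔIEC tumours. With standard errors of 0.15 to 0.32 per gene, differences of the size seen here could not be told from the spread.

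**Figure D5:**
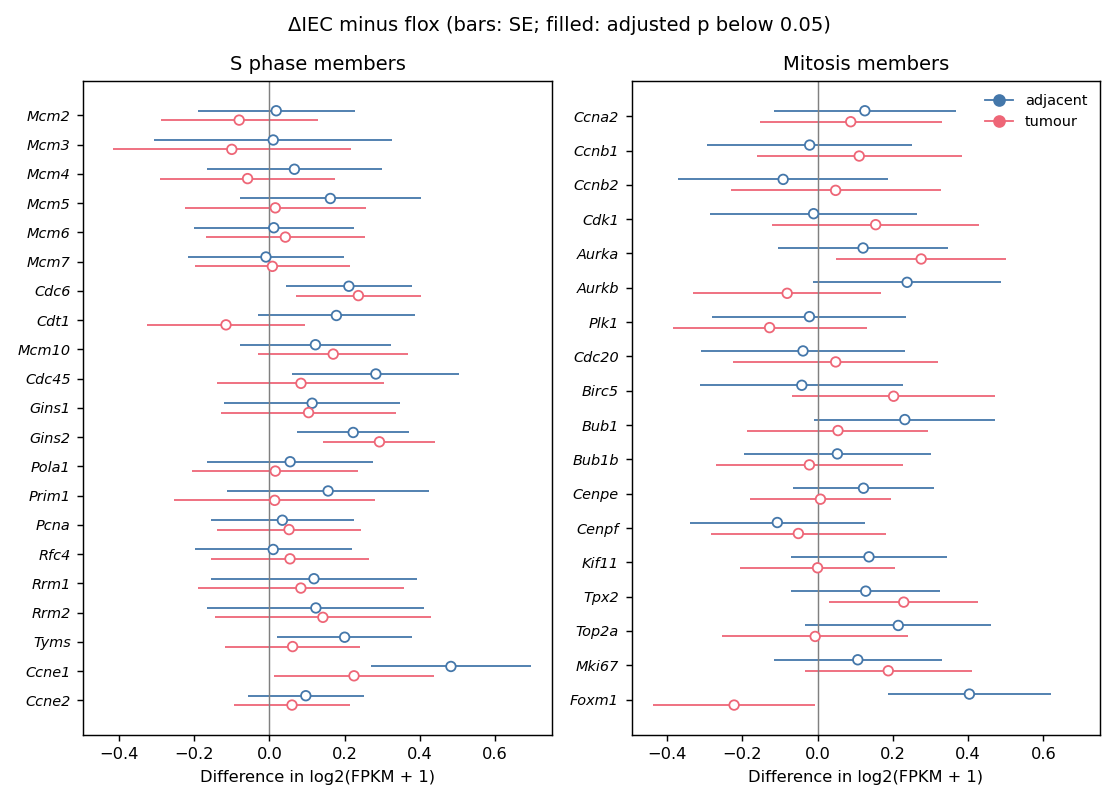
Points are the ΔIEC minus flox difference in log2(FPKM + 1) for each gene in adjacent tissue and in tumours, with bars for the standard error from limma; no point is filled, since no adjusted p was below 0.05. The largest difference is that of Ccne1 in adjacent tissue, at 0.48.

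Ccne1, the first of the E cyclins, had the smallest unadjusted p in adjacent tissue. It was at 3.44, 1.98 and 2.60 FPKM in FA1 to FA3, 2.93, 5.42 and 4.17 in DA1 to DA3, 4.89, 4.82 and 6.24 in FT1 to FT3 and 5.38, 7.59 and 6.24 in DT1 to DT3. DA1 lay below FA1, and the difference was 0.48 (SE 0.21, limma unadjusted p = 0.046, adjusted p = 0.93). In tumours it was 0.23 (SE 0.21). Foxm1 had the next smallest p in adjacent tissue, with a difference of 0.40 (SE 0.22, limma unadjusted p = 0.090). Gins2, whose values stand above, differed by 0.29 between tumour groups (SE 0.15, limma unadjusted p = 0.077, adjusted p = 1.0), with FT3 among the ΔIEC values. The main protein-coding transcript of Gins2 overlapped, at 5.87 to 7.64 FPKM in FT and 6.27 to 8.08 in DT libraries. Another, not annotated as protein-coding, was at 1.40 to 3.25 FPKM in FT and 3.06 to 7.03 in DT libraries. Cdc6 differed by 0.24 between tumour groups (SE 0.17). Cdt1 had the next smallest interaction p after Foxm1 among the 39 genes, -0.29 (SE 0.30, limma unadjusted p = 0.34).

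Genes of the same machinery outside the 39 were counted by role in the averaged tumour contrast, in which 24.2% of all genes tested rose and 26.4% fell. Of 21 further genes of origin recognition, licensing and firing, 12 rose and 1 (Mcmbp) fell. Orc2 (0.84) and Orc6 (0.82), of the origin recognition complex, Mtbp (0.99), needed for origin firing, and Timeless (0.72) and Tipin (0.81), which travel with the fork, were among those that rose. With its most abundant transcript, Timeless was not called (limma adjusted p = 0.060). Of 30 genes of the fork, nucleotide supply and chromatin assembly, 14 rose and 0 fell, led by Rfc3 of the clamp loader, with 11.3 to 14.7 FPKM in adjacent and 26.0 to 33.1 in tumour libraries and a difference of 1.17. Chaf1b, of the histone chaperone that follows the fork, rose by 0.86, Dut, which removes dUTP, by 0.67, and Pole, the leading strand polymerase, by 0.63.

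Regulators upstream of S phase were counted in the same contrast. Of 18 genes of the E2F, Rb and DREAM families 5 rose and 5 fell, shares near the 24.2% and 26.4% of all genes tested. Mybl2, which encodes B-Myb, rose by 0.79 and Lin9, of the MuvB core, by 0.70, whereas Rb1, the retinoblastoma gene, was at 22.8 to 29.8 FPKM in adjacent and 12.3 to 15.9 in tumour libraries and fell by 0.87 on the log2 scale. Of 13 G1 cyclins, kinases and Cdc25 phosphatases 4 rose and 2 fell, again not far from those shares. Cdk4, the kinase partner of the D cyclins, was at 45.6 to 64.7 FPKM in adjacent and 94.6 to 142 in tumour libraries, a difference of 1.20. Ccnd1 and Ccnd2, 2 of its partners, rose by 0.90 and 0.89. Of 7 CDK inhibitors 1 rose and 3 fell, a list too short to set apart from the same shares. Cdkn1b, the p27 gene, fell by 0.84, Cdkn1a, the p21 gene, fell by 0.84 (limma adjusted p = 0.010, and 0.052 after rescaling) and Cdkn2b, the p15 gene, fell by 1.10. Cdkn2a, the gene of p16 and p19Arf, was listed at 0 in FA1, FA3 and DA1 and at no more than 0.207 FPKM in the other adjacent libraries, and at 1.11 to 10.7 in tumours (limma adjusted p = 0.00073).

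Among the wider mitotic lists, spindle genes had the largest share of calls. Of 26 genes of spindle motors, condensin and cytokinesis 24 rose and 0 fell, where 24.2% of all genes tested rose and 26.4% fell, and 15 rose in flox and 12 in ΔIEC mice alone, against 16.6% and 13.9% of all genes. Ect2 (0.87) and Kif20a (0.89), which act in cytokinesis, and Smc2 (0.81), of condensin, had the largest differences within the 2 genotypes. With the most abundant transcript in place of the sum, Ect2 and Kif20a were not called (limma adjusted p = 0.16 and 0.89). Of 20 genes of the spindle checkpoint, kinetochore and centromere 11 rose and 1 (Hjurp) fell, among the risers Mad2l1 (0.92), Mad1l1 (0.48) and Bub3 (0.50) of the checkpoint, Sgo2a (0.57), which guards cohesin, and Ndc80 (0.67) of the kinetochore. Of 19 genes of the anaphase-promoting complex, separase and cohesin release 7 rose and 3 fell, closer to the shares of all genes. Anapc4 (0.86), a subunit of the complex, Ube2s (0.67), its ubiquitin-conjugating enzyme, and Fbxo5 (0.54), its inhibitor, rose. Those that fell were Anapc13, a subunit of the complex, Fzr1, its activator in G1, and Pttg1, the securin that holds separase. Pttg1 was at 19.8 to 28.9 FPKM in adjacent and 11.6 to 15.8 in tumour libraries and fell by 0.75 (limma adjusted p = 0.00030, and 0.080 with its most abundant transcript). By genotype, 0 genes of these lists were called in either tissue.

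Markers of other cell types were counted in the same averaged contrast, in which 24.2% of all genes tested rose and 26.4% fell. Of 8 differentiated colonocyte markers 7 fell in the averaged contrast, and their summed FPKM was 2224 to 3639 in FA, 1585 to 3763 in DA, 161 to 279 in FT and 200 to 426 in DT libraries; none was at 0 in any library. Of 8 crypt base and progenitor markers 7 rose and 1 (Rgmb) fell, with sums of 92.1 to 104 in adjacent and 187 to 376 in tumour libraries, none at 0. All 4 neutrophil markers rose, with sums of 1.68 to 5.44 in adjacent and 123 to 567 in tumour libraries and Cxcr2 at 0 in 1 adjacent library. Of 6 fibroblast markers 4 rose, with sums of 44.6 to 247 in adjacent and 276 to 581 in tumour libraries, and of 6 squamous markers 5 were tested and 4 rose, with sums of 0.840 to 4.44 and 18.9 to 395. Monocyte and macrophage markers rose in 4 of 6 cases and endothelial markers in 3 of 5, whereas 2 of 7 T cell markers (Cd3e and Cd8a) and 1 of 5 plasma cell markers (Xbp1) fell, shares near that of all genes. By limma 0 of 7 B and germinal centre cell markers tested and 0 of 5 smooth muscle markers were called, with 0 and 0 at an unadjusted p under 0.05. The 10 general epithelial markers fell in 9 cases, with sums of 5532 to 9263 in adjacent and 4038 to 5733 in tumour libraries. The part of these changes in the levels of the 39 genes was not tested.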

How the data were processed

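Strand-specific TruSeq libraries were made from 1 ug of total RNA, per the labels. FastQC, STAR 2.5, Cuffnorm and GRCm38 are named, per the submitters' processing notes; neither their settings nor the annotation is given there. The authors deposited log2(FPKM + 1) per transcript. Of 123062 transcripts, 118004 (95.9%) matched GENCODE identifiers on GRCm38; the others, holding 4.36% to 7.44% of a library's FPKM total, were left out. FPKM was recovered from the logs and added up per gene. The R package limma 3.58.1 (R 4.3.3) modelled log2(FPKM + 1) (pseudocount 1; trend and robust; 4 group means, 8 residual degrees of freedom, no block), with two-sided tests adjusted by the Benjamini-Hochberg method over 16970 genes per contrast. Ratios are of group means of FPKM. The 7 contrasts were genotype within each tissue and averaged, tumour against adjacent tissue within each genotype and averaged, and the interaction. Without counts, no count model or counting interval was used. The script was tested on simulated data.

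The 39 genes and all lists were chosen with earlier results of these data known. Values in every library are given for the 3 genes of smallest p in the averaged tumour contrast per set, the 2 of smallest p in each genotype contrast and the interaction, and Mki67, Pcna, Mcm2, Ccnb1 and Cdk1; of each further list, up to 3 called genes of largest difference per genotype are named. Genes going against their list were picked once values were known. Alternatives were the pseudocount, filters, normalization, transcripts, eBayes settings, blocks, only the groups compared and leaving out each library. Libraries of a group correlated at 0.912 to 0.962.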

Additional observations from a re-analysis of the deposited data

How the results depend on the processing

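FPKM values hide read depth, and 3 libraries a group give a smallest two-sided exact permutation p of 0.1, so single genes rest on the spread that limma shares across genes. Without a filter, 4 genes were called higher and 4 lower by genotype in tumours, and 5 S phase genes were called in ΔIEC tumours. A filter at an FPKM of 5 called 5 mitosis genes in ΔIEC tumours. Quantile normalization called 6 mitosis genes in each genotype, and the most abundant transcript per gene called 5 in each. With that transcript, Kif20a turned to -0.26 in ΔIEC tumours (limma adjusted p = 0.84), and the cause was not tested. The S phase and mitosis counts under these settings show only how calls moved, without the share of all genes called beside them. Genes tested numbered 31599 without a filter, 11251 at an FPKM of 5 and 16335 with the most abundant transcript. Rescaling to protein-coding genes called 6350 genes higher and 1754 lower in flox tumours, 4366 and 1482 in ΔIEC tumours and 7524 and 2356 averaged. It called 20 and 15 S phase genes in flox and ΔIEC tumours, with medians of 1.05 and 0.80 and 0.94 averaged, and 18, 11 and 18 mitosis genes, with medians of 0.89 in flox tumours and 0.82 averaged. Fitting only the groups compared, with fewer samples, called 1 gene higher by genotype in tumours and, in ΔIEC tumours, 1136 higher, 1428 lower and 0 S phase genes. Taking the median over genes in place of the mean moved S phase minus mitosis level, ΔIEC tumour minus adjacent, from 0.08 to -0.19; the cause was not tested. In the shorter window of 100 bases before the start, 3 of 17 S phase (17.6%) and 1 of 14 mitosis promoters (7.14%) held E2F words. Of the promoters of genes tested 6.27% did. CHR words were held by 1 S phase (5.88%) and 5 mitosis promoters (35.7%), against 3.80% of those of the genes tested.

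The labels do not state whether samples are paired. FA1 and FT1, FA2 and FT2, FA3 and FT3, DA2 and DT2, and DA3 and DT3 share a description code, whereas DA1 and DT1 do not. Deviations of same-numbered adjacent and tumour libraries from their group means correlated at 0.05, -0.19 and 0.10 in flox mice. In ΔIEC mice they correlated at 0.19 (DA1 and DT1), 0.05 and 0.17. With 3 libraries a group, such correlations cannot decide whether the libraries are paired, and the main tests did not pair them. With a replicate block by title number, 8 and 6 S phase genes were called in flox and ΔIEC tumours and 17 averaged, and 3, 1 and 11 mitosis genes. The share of all genes called with the title block is not given beside these counts. A replicate block by description code as a fixed term, in which DA1 and DT1 share no code and drop out of the contrast, called 334 genes higher, 317 lower, 0 S phase and 0 mitosis genes in ΔIEC tumours, and 2 mitosis genes averaged. Under that block the averaged limma adjusted p was 0.077 for Ccnb1, 0.072 for Cdk1, 0.066 for Gins2, 0.061 for Fbxo5 and 0.094 for Cdkn1a.

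Leaving out 1 library gave 3 to 15 S phase genes called in flox tumours and 3 to 15 in ΔIEC tumours, 0 to 7 and 0 to 10 mitosis genes, and 14 to 20 S phase and 8 to 17 mitosis genes averaged, so some of the 19 and 11 lost their call. Genes called higher ran from 1669 to 3194 and lower from 2229 to 3479 in flox tumours, and from 1365 to 2365 and 1554 to 2753 in ΔIEC tumours. By genotype, 0 to 293 genes were called higher and 0 to 10 lower in adjacent tissue, the highest counts without DA1, none of them among the 39. The counts were 0 to 1 and 0 to 3 in tumours, 0 to 1 higher averaged over tissues and 0 to 1 higher in the interaction, whose S phase median ran from -0.29 to 0.14. Mcm2, Mcm7, Gins1, Gins2, Cdc6, Pcna, Ccne1, Ccnb1, Cdk1, Tpx2 and Top2a kept their averaged call whichever library was left out, with a highest adjusted p of 0.035, for Cdk1.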
